A study of Homo sapiens with 24 samples.

Results

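The genes described here encode the human centromere, the kinetochore built on it and the spindle assembly checkpoint that reads it. They were chosen by name: 43 genes, each with 1 row in every count file, of the 58721 gene identifiers in those files. They fall into 7 groups by role, namely 4 genes for CENP-A and its deposition, 13 of the constitutive centromere network, 10 of the outer kinetochore network of KNL1, MIS12 and NDC80 complexes (KMN), 5 of the fibrous corona and the ROD-ZW10-ZWILCH complex (RZZ), 6 of the checkpoint, 3 of the Ska complex and 2 shugoshins. All 43 passed the filter on low counts in every comparison, so no member was left untested.

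A centromere is marked by nucleosomes that hold CENP-A, a histone H3 variant that the chaperone HJURP and the Mis18 complex deposit once in each cell cycle. The constitutive centromere network sits on these nucleosomes throughout the cycle, the KMN network joins it for mitosis and binds spindle microtubules through the Ndc80 complex, and the checkpoint proteins gather on kinetochores that lack microtubules and hold back anaphase. Many of these genes are transcribed late in the cycle, and their promoters often carry a cell cycle genes homology region (CHR), the element through which the DREAM and MuvB complexes act. MYBL2 joins MuvB as an activator of such genes and FOXM1, a forkhead factor, follows it.

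RNA-seq was performed in A549 cells, an established human lung adenocarcinoma line, to ask which genes depend on MYBL2 and FOXM1. Scrambled control siRNA (siControl), siRNA against MYBL2 (siMYBL2) and siRNA against FOXM1 (siFOXM1) had 4 libraries each, all at 25 nM siRNA with DharmaFECT1, and siMYBL2 and siFOXM1 share the siControl libraries. Co-transfection of both siRNAs (siBoth) and its own control (siControl_Both) had 3 libraries each, also at 25 nM siRNA. Cells given 20 µM FDI-6, forkhead domain inhibitor 6, for 24 h (FDI6) and their control (control_FDI6) had 3 libraries each as well. The amount of each siRNA within siBoth and what control_FDI6 received are not given in the labels. The replicates are described as biological replicates of 1 cell line, so the p-values measure the spread between cultures of A549 alone. In the siRNA groups that spread includes differences shared by libraries of the same replicate number, which the main fits do not separate. In bulk RNA, fewer cells in a cell cycle phase and less RNA per cell cannot be told apart.

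Each library held 16487394 to 30140550 counts on genes. The share of reads not aligned was 9.09% to 10.9% in siBoth, 7.68% to 7.92% in siControl_Both and 1.73% to 3.03% in all other groups. The 6 libraries of siBoth and siControl_Both stand apart and were compared with each other. Between treated and control libraries of this set the share also differed, without overlap, and its part in the siBoth results was not tested. MYBL2 measured 133 to 178 CPM (read counts relative to library size, scaled by TMM factors) in siControl and 4.60 to 8.73 in siMYBL2, and FOXM1 measured 108 to 139 CPM in siControl and 10.3 to 13.2 in siFOXM1. In siBoth both were low, with 6.22 to 9.90 CPM for MYBL2 and 10.2 to 15.0 for FOXM1. FOXM1 was also lower in siMYBL2 (log2 fold change -0.73 ± 0.14 SE, adjusted p = 0.00754 by edgeR). In FDI6 the 2 factors had log2 fold changes of -0.51 ± 0.09 for MYBL2 and -0.37 ± 0.08 for FOXM1 (adjusted p of 0.00105 and 0.004), both below a 1.5-fold change. Summed over 5 markers, epithelial genes measured 2731 to 8248 CPM across the 7 groups. KRT8 and KRT18 made up most of this sum, and EPCAM measured only 1.67 to 4.16 CPM in siBoth and siControl_Both. In replicate 4 of siMYBL2, siFOXM1 and siControl EPCAM measured 29.8, 37.5 and 36.0 CPM, against 4.52 to 16.9 in replicates 1 to 3. The 4 fibroblast markers summed to 5.70 to 59.6 CPM and the 3 endothelial markers to 0 to 4.58 CPM. All 4 leukocyte markers together stayed at 0 to 0.334 CPM in every library, with CD3E at 0 throughout.

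Per kilobase of exon (RPKM, mean ± SD of the 4 siControl libraries), the members spanned a wide range, from ZWINT at 38.6 ± 2.8 to CENPP at 0.714 ± 0.119. HJURP followed ZWINT at 33.4 ± 3.8, then SKA2 at 29.1 ± 2.8, CENPF at 26.6 ± 3.2 and BUB3 at 25.1 ± 0.75, and each of these overlapped its neighbour within 1 SD. CENPA itself had rank 7 in that order, at 15.4 ± 1.6. The median level was 6.63 RPKM for the constitutive centromere network, 8.45 for KMN, 9.88 for the corona and RZZ and 12.5 for the checkpoint. The structural subunits CENPC, the platform that binds CENP-A nucleosomes, and NSL1, of the Mis12 complex, were among the lowest, at 1.60 ± 0.11 and 2.86 ± 0.12. No strand setting is given for the counting, and 92.5% of the exon bases of OIP5 lie across from exons of NUSAP1, OIP5-AS1 and 1 unnamed gene on the other strand. The same holds for 43.2% of CENPP, 31.6% of CENPO, 20.2% of CENPT, 15.8% of SGO1 and 14.9% of CENPU, and 43.2% of MAD1L1 and 23.3% of PMF1 share bases with a gene on their own strand, so values of these genes are uncertain.

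The promoters of the 7 members called lower in siMYBL2 or siFOXM1 are printed here from RefSeq windows on GRCh38 (hg38), since these genes carry the results that follow. Each line runs from 120 bases before to 20 bases after the transcription start, 5′ to 3′ on the gene's own strand. Capitals mark a CHR (TTTGAA or TTCGAA) or a CCAAT box (CCAAT), each searched on both strands.

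CENPA: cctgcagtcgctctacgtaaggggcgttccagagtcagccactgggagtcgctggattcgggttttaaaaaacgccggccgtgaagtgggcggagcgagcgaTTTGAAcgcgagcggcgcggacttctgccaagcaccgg
HJURP: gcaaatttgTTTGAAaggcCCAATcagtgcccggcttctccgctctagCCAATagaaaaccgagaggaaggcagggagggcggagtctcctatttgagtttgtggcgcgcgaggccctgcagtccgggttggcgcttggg
MIS12: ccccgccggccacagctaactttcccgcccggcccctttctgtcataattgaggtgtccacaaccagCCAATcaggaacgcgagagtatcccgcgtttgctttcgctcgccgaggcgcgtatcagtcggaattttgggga
SPC24: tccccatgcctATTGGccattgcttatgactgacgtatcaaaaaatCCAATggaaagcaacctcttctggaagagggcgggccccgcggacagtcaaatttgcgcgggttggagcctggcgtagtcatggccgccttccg
SPC25: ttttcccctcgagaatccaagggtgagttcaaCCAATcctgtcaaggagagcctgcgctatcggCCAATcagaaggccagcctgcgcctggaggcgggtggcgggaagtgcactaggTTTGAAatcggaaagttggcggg
CENPE: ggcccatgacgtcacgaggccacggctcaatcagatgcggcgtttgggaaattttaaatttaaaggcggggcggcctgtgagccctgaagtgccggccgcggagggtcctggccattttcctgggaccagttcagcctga
SGO1: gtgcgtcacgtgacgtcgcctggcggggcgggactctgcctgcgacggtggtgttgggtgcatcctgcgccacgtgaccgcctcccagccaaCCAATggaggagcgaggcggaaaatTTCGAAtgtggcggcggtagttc

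The stretches lie at chr2:26785936-26786075 on the plus strand (CENPA), chr2:233854516-233854655 on the minus strand (HJURP), chr17:5486446-5486585 on the plus strand (MIS12), chr19:11155763-11155902 on the minus strand (SPC24), chr2:168890411-168890550 on the minus strand (SPC25), chr4:103198324-103198463 on the minus strand (CENPE) and chr3:20186187-20186326 on the minus strand (SGO1). The CHR of CENPA begins 18 bases before the start, and those of SPC25 and SGO1 begin 3 bases before it and run across it. HJURP carries its CHR at -111, upstream of a pair of CCAAT boxes at -101 and -72. The printed stretches of SPC24 and MIS12 hold CCAAT boxes and no CHR, and that of CENPE holds neither.

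Windows from 250 bases before to 50 bases after the start were found for 35 of the 43 members. None was found for MIS18A, CENPH, CENPL, CENPM, KNL1, KNTC1, BUB3 and TTK. A CHR was present in 19 of the 35 windows (54.3%), against 16.4% of all 35116 RefSeq windows of that length. In 16 members it lay between 40 bases before and 50 bases after the start, an interval with no share of all windows computed. All 3 windowed genes of CENP-A deposition (CENPA, HJURP and OIP5) held a CHR, as did 4 of 10 in the constitutive network, 4 of 9 in KMN, 2 of 4 in the corona and RZZ, 3 of 4 in the checkpoint, 2 of 3 in Ska and 1 of 2 shugoshins. A CCAAT box was present in 22 windows (62.9% against 34.6%), a forkhead word (TGTTTA) in 3 (8.6% against 12.3%) and a MYB word (TAACNG) in 8 (22.9% against 20.8%). The 3 members with the forkhead word were CENPQ, CENPE and BUB1B, and no matches of different words shared a base. A match is a run of letters and not a measured binding site.

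**Figure D1:**
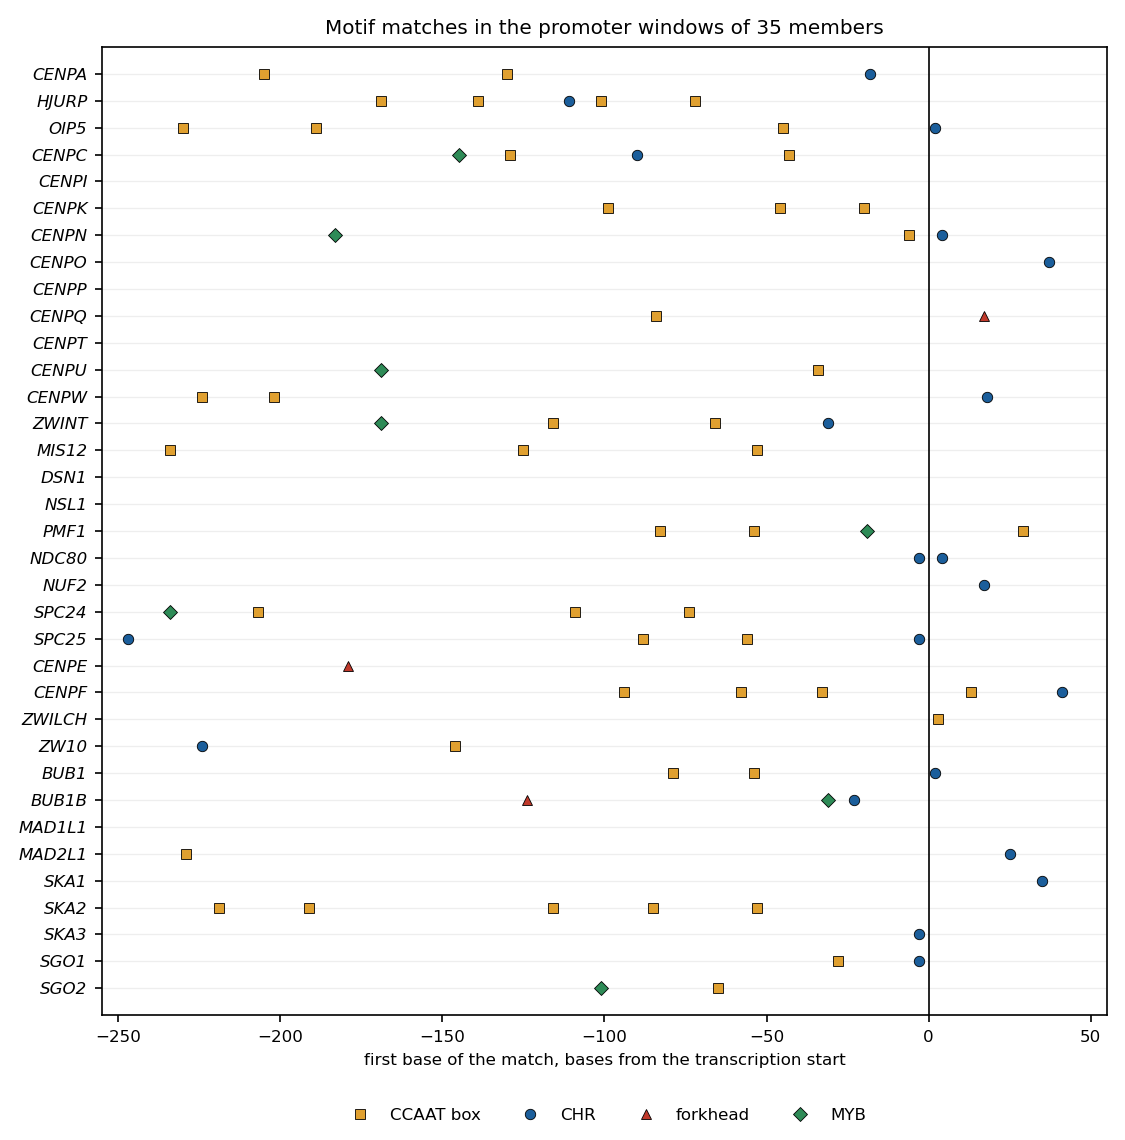
Positions of 4 short words in the RefSeq promoter windows of 35 members; the horizontal axis is the first base of each match counted in bases from the transcription start, and each row is 1 gene. A CHR match lies between 40 bases before and 50 bases after the start in 16 members, and CCAAT boxes mostly lie upstream of the start. Positions in all other windows were not computed.

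Knockdown of MYBL2 lowered 6 of the 43 members by more than 1.5-fold and raised none. The 6 were CENPE, the kinesin that carries chromosomes along microtubules, CENPA and its chaperone HJURP, the Ndc80 complex subunits SPC25 and SPC24 that anchor that complex to the inner kinetochore, and SGO1, which protects centromeric cohesion. Over all genes tested with edgeR, 3.52% were called lower and 4.38% higher, where called means an adjusted p below 0.05 and a fold change above 1.5. The decline reached beyond the called members: 39 of 43 had a negative log2 fold change, where 48% of all genes did. Their median was -0.28 against 0.01 over all genes. No member was higher at an unadjusted p under 0.05, and DESeq2 called 7 lower and 0 higher. Shares of all genes at an unadjusted p were not computed, here or for the counts below, which only describe the members.

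CENPA measured 28.9, 26.4, 31.3 and 33.5 CPM in the 4 siControl libraries and 12.8, 14.3, 15.9 and 14.02 in siMYBL2. Every siMYBL2 library was below every control (log2 fold change -1.07 ± 0.10 SE, adjusted p = 0.000329 by edgeR). CENPE, at 82.9, 97.2, 88.4 and 87.8 CPM in siControl, fell to 36.7, 45.1, 45.9 and 32.8. This was the largest change among the members, a log2 fold change of -1.15 ± 0.11 (adjusted p = 0.000425), again with no overlap. HJURP fell from 134, 124, 144 and 109 CPM to 71.5, 84.8, 93.0 and 54.5 (log2 fold change -0.75 ± 0.16, adjusted p = 0.0133). The other deposition factors, OIP5 and MIS18A of the Mis18 complex, had log2 fold changes of -0.56 ± 0.16 and -0.19 ± 0.12 and were not called.

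Within the Ndc80 complex SPC25 and SPC24 were called and NDC80 and NUF2 were not, and the 4 subunits were not tested against each other. SPC25 went from 20.1, 20.7, 19.2 and 22.8 CPM to 11.6, 14.4, 12.5 and 13.4 (log2 fold change -0.67 ± 0.09, adjusted p = 0.00214). SPC24 went from 19.4, 16.3, 20.4 and 17.7 CPM to 9.35, 13.1, 12.9 and 12.6 (log2 fold change -0.62 ± 0.13, adjusted p = 0.0113). Both sets lay entirely below their controls, while NDC80 and NUF2, the microtubule-binding pair, had log2 fold changes of -0.21 ± 0.16 and -0.28 ± 0.10 with adjusted p of 0.41 and 0.0747. Leaving out siMYBL2 replicate 1 or siControl replicate 3 brought SPC24 to -0.52 or -0.57, below the fold threshold, as did upper-quartile scaling (-0.57) and library size alone (-0.55). The Mis12 complex stayed near 0, with MIS12 at -0.01 ± 0.06, NSL1 at 0.11 ± 0.06 and PMF1 at -0.14 ± 0.11, except DSN1 at -0.35 ± 0.14 (adjusted p = 0.116).

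No subunit of the constitutive centromere network was called in siMYBL2 by edgeR or DESeq2, although 3 of 13 were lower at an unadjusted p under 0.05. CENPO, of the CENP-O/P/Q/U module, came closest, at 31.3, 34.3, 31.8 and 26.6 CPM in siControl and 20.2, 25.6, 20.7 and 16.8 in siMYBL2 (log2 fold change -0.57 ± 0.13, adjusted p = 0.0183, just under the fold threshold). Its partner CENPQ lay at 0.19 ± 0.09, with every siMYBL2 library above every control, and was not called (adjusted p = 0.188). CENPC, CENPT and CENPW, which contact CENP-A nucleosomes and DNA, had values of -0.11 ± 0.11, -0.03 ± 0.12 and 0.01 ± 0.12.

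The checkpoint genes showed small negative values and no call by edgeR or DESeq2, with 4 of 6 lower at an unadjusted p under 0.05. TTK, the kinase that starts checkpoint signalling, measured 45.3, 50.6, 51.1 and 49.8 CPM in siControl and 34.9, 41.7, 42.9 and 30.8 in siMYBL2 (log2 fold change -0.39 ± 0.11, adjusted p = 0.0395). The groups did not overlap, but the change was less than 1.5-fold. BUB1B and MAD2L1, 2 parts of the complex that inhibits the anaphase-promoting complex, had values of -0.37 ± 0.09 and -0.33 ± 0.09 (adjusted p of 0.0194 and 0.0396). BUB3 and MAD1L1 lay at -0.11 ± 0.07 and 0.12 ± 0.08 (adjusted p of 0.322 and 0.324).

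Of the shugoshins, SGO1 fell from 15.1, 19.4, 16.3 and 17.0 CPM to 10.1, 11.9, 11.1 and 9.99 (log2 fold change -0.65 ± 0.11, adjusted p = 0.00422), with no overlap, but lay just under the fold threshold with library size alone (-0.58). SGO2 had a value of -0.16 ± 0.10 (adjusted p = 0.323). SKA3, which helps the Ska complex bind the Ndc80 complex, measured 25.1, 29.996, 30.5 and 20.6 CPM in siControl and 14.3, 20.9, 21.0 and 12.4 in siMYBL2. These ranges overlapped, since 2 siMYBL2 libraries lay above the lowest control, and the call was missed at a log2 fold change of -0.63 ± 0.20 (adjusted p = 0.0563). The libraries of one number deviated together, and once that number was fitted as a block SKA3 was called (log2 fold change -0.64, adjusted p = 5.59e-06). The corona protein CENPF had a value of -0.53 ± 0.15 (adjusted p = 0.0352), and ZWILCH, ZW10 and KNTC1 of the RZZ complex lay between -0.44 and -0.22.

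Without the fold threshold, 13 members were lower in siMYBL2 at an adjusted p below 0.05, where 9.53% of all genes were lower. With the replicate block this rose to 30 members lower and 1 higher (CENPQ), where 23.1% of all genes were lower and 23.6% higher. Among 46 G2/M phase genes outside the set, 14 were called lower and the median log2 fold change was -0.41, and among 41 tested S phase genes 7 were called lower with a median of -0.33. The members' median lay closer to 0 than either phase list. Of 11 further centromere and kinetochore genes, only KNSTRN, a kinetochore and spindle protein, was called in siMYBL2, at -0.59 ± 0.14 (adjusted p = 0.0193).

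**Figure D2:**
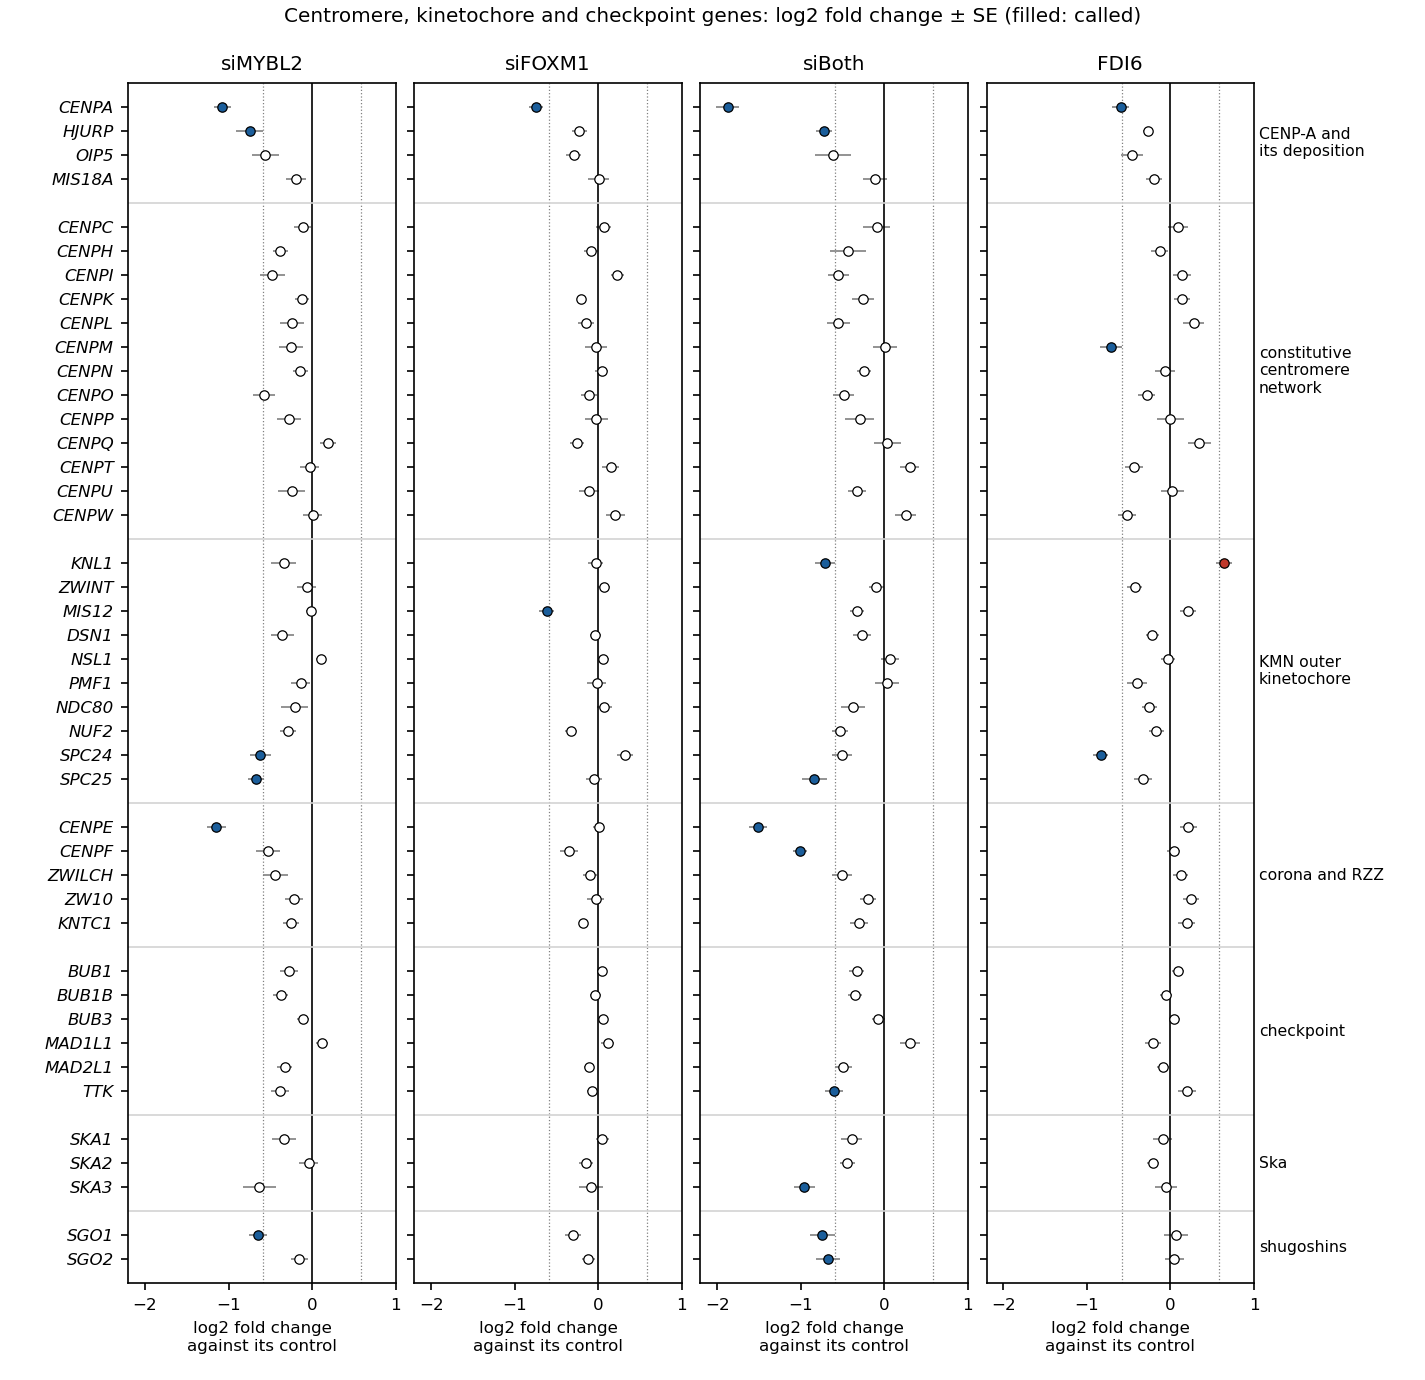
Log2 fold change ± SE of each of the 43 members in siMYBL2, siFOXM1, siBoth and FDI6 against its own control, ordered by role; blue points were called lower, red points higher, white points were not called, and dotted lines mark a 1.5-fold change. CENPA is the 1 member called lower in all 4 columns, and the constitutive centromere network holds a single call, CENPM in FDI6.

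After knockdown of FOXM1 few genes were called, among the members as over all genes. CENPA and MIS12, a subunit of the Mis12 complex that links the inner to the outer kinetochore, were called lower and no member was called higher by edgeR or DESeq2. Over all genes, 0.591% were called lower and 0.0755% higher, and the 2 of 43 members called lower lie above that share. The median log2 fold change of the 43 members was -0.03 against 0.0025 over all genes, and 28 of 43 were negative. At an unadjusted p under 0.05, 10 members were lower and 2 higher.

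CENPA measured 18.2, 16.7, 18.5 and 18.4 CPM in siFOXM1, all below the 26.4 to 33.5 of siControl (log2 fold change -0.75 ± 0.09, adjusted p = 0.00381). MIS12 measured 33.5, 33.5, 30.9 and 33.5 CPM in siControl and 21.4, 23.8, 17.9 and 23.0 in siFOXM1 (log2 fold change -0.62 ± 0.09, adjusted p = 0.014), again without overlap. The MIS12 call was lost when any of 4 libraries was left out: without siFOXM1 replicate 1, siControl replicate 1 or siControl replicate 2 the adjusted p was 0.065, 0.0585 or 0.0523, and without siFOXM1 replicate 3 the log2 fold change was -0.54. With library size alone it was -0.58, also below the threshold. In siMYBL2 the same gene stood at 30.9 to 34.3 CPM, within the range of its controls apart from 1 library. CENPE, the member that changed most in siMYBL2, measured 84.9, 95.6, 91.8 and 86.7 CPM in siFOXM1 (log2 fold change 0.0044 ± 0.0661).

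Within the remaining groups the member with the largest value did not pass. CENPQ of the constitutive network had 13.2, 15.5, 12.7 and 15.0 CPM against 16.9, 15.8, 17.6 and 16.8 (log2 fold change -0.25 ± 0.09, adjusted p = 0.244). CENPF had 234, 259, 307 and 247 CPM against 282, 331, 379 and 334 (-0.35 ± 0.11, adjusted p = 0.197), and SGO1 had 13.5, 14.6, 12.7 and 14.4 against 15.1, 19.4, 16.3 and 17.0 (-0.30 ± 0.10, adjusted p = 0.209). The siFOXM1 libraries of CENPQ and SGO1 lay below all controls, and those of CENPF overlapped them. In the checkpoint MAD1L1 had the largest value, at 22.5, 23.8, 23.4 and 20.5 CPM against 22.0, 21.9, 20.2 and 18.9 (0.11 ± 0.08, adjusted p = 0.656). For SKA2 the values were 82.9, 80.1, 96.7 and 81.6 CPM against 95.2, 90.3, 106 and 84.7 (-0.15 ± 0.09, adjusted p = 0.561). SPC24 differed in sign from its values in siMYBL2, at 22.5, 21.4, 26.0 and 23.0 CPM, all above the 16.3 to 20.4 of siControl (0.32 ± 0.10, adjusted p = 0.16).

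With the replicate block and no fold threshold, 12 members were lower and 4 higher in siFOXM1, where 14% of all genes were lower and 12.3% higher. SPC24 was among the 4 higher members (log2 fold change 0.33, adjusted p = 0.000104), with CENPI, CENPT and CENPW. The 2 members called past 1.5-fold did not change with the block. Of the 11 further genes KNSTRN alone was called, at -0.60 ± 0.12 (adjusted p = 0.0471), and the G2/M list had a median of -0.13 with 4 of 46 called lower.

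**Figure D3:**
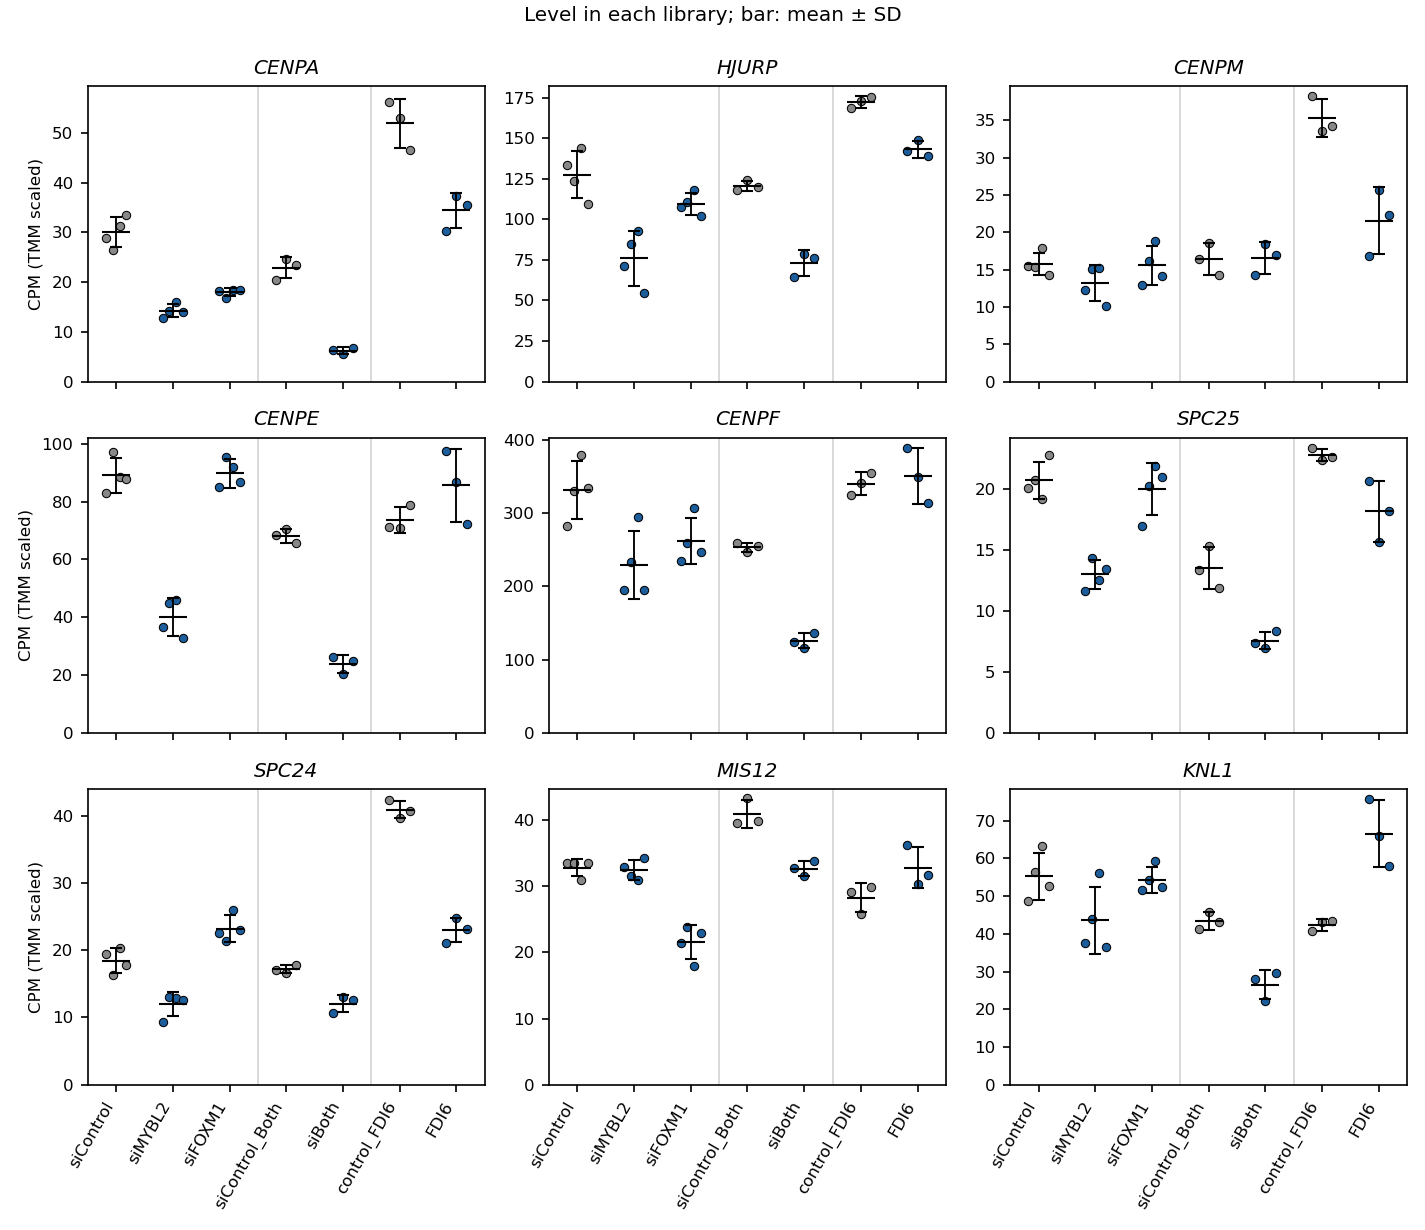
CPM of 9 members in each of the 24 libraries, with the mean ± SD of each group as a bar; grey points are control libraries and blue points treated ones, and vertical lines part sets with separate controls. CENPA lies below its controls in all 4 treatments, CENPE in siMYBL2 and siBoth, and MIS12 in siFOXM1 and siBoth.

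A direct fit of siMYBL2 against siFOXM1 showed which members differed between the 2 knockdowns. CENPE, SPC24, CENPI and SPC25 were lower in siMYBL2 and MIS12 was higher, in data where 4.34% of all genes were called lower and 5.86% higher. CENPE differed by -1.16 ± 0.11 (adjusted p = 0.000228) and SPC24 by -0.95 ± 0.12 (adjusted p = 0.00083). MIS12 differed by 0.60 ± 0.09 (adjusted p = 0.00207), and its libraries did not overlap. CENPI, which joins CENPH, CENPK and CENPM in 1 module, measured 17.9, 21.8, 21.3 and 13.6 CPM in siMYBL2 and 29.7, 32.3, 30.7 and 29.8 in siFOXM1 (-0.71 ± 0.14, adjusted p = 0.0065), on either side of the 23.9 to 29.4 of siControl. SPC25 differed by -0.62 ± 0.11 (adjusted p = 0.00347). CENPA was lower in siMYBL2 than in siFOXM1 in 4 of 4 pairs, but by less than 1.5-fold (-0.33 ± 0.09, adjusted p = 0.0278). Without siMYBL2 replicate 4 the difference of CENPI was -0.58 and that of MIS12 0.57, and without siFOXM1 replicate 3 those of MIS12 and SPC25 were 0.52 and -0.57, below the fold threshold, as was SPC25 without siMYBL2 replicate 1 (-0.57). Without the fold threshold 10 members were lower and 2 higher, where 11.8% of all genes were lower and 11.4% higher.

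Knockdown of both factors gave the most calls: 10 members lower and none higher by edgeR or DESeq2, with 2 higher at an unadjusted p under 0.05. Over all genes 3.64% were called lower and 2.8% higher. The 10 were CENPA and HJURP of CENP-A deposition, KNL1 and SPC25 of the KMN network, the corona proteins CENPE and CENPF, the checkpoint kinase TTK, SKA3, and both shugoshins. The median log2 fold change was -0.38 against 0.02 over all genes, and 36 of 43 members were negative.

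CENPA measured 20.5, 24.7 and 23.4 CPM in siControl_Both and 6.41, 5.50 and 6.75 in siBoth, a 3.67-fold lower level (log2 fold change -1.88 ± 0.14, adjusted p = 0.000294). CENPE followed, with 68.5, 70.4 and 65.7 CPM against 26.2, 20.4 and 25.0 (-1.51 ± 0.11, adjusted p = 0.000294). CENPF, a large coiled-coil protein of the corona, went from 259, 246 and 254 CPM to 124, 117 and 136 (-1.01 ± 0.09, adjusted p = 0.000521). In none of these did the groups overlap. SKA3 went from 22.2, 24.9 and 23.7 CPM to 11.7, 10.9 and 13.8 (-0.96 ± 0.12, adjusted p = 0.00328), and SPC25 from 13.3, 15.3 and 11.9 to 7.40, 6.93 and 8.32 (-0.84 ± 0.15, adjusted p = 0.0112). HJURP went from 118, 124 and 120 CPM to 64.3, 78.9 and 76.2 (-0.72 ± 0.09, adjusted p = 0.00328). Each siBoth library was below each control for these 3 genes as well.

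The shugoshins, KNL1 and TTK lay nearer to the thresholds. SGO1 went from 14.3, 16.4 and 16.8 CPM to 8.88, 8.24 and 11.2 (-0.74 ± 0.15, adjusted p = 0.0184) and SGO2 from 31.7, 33.4 and 28.4 to 20.7, 15.7 and 22.3 (-0.67 ± 0.14, adjusted p = 0.0221). KNL1, the scaffold that recruits BUB1 and BUB1B, went from 41.3, 45.9 and 43.1 CPM to 28.0, 22.1 and 29.6 (-0.71 ± 0.12, adjusted p = 0.00978), and TTK from 41.3, 44.3 and 41.3 to 27.9, 24.0 and 31.5 (-0.60 ± 0.11, adjusted p = 0.0128). None of the 4 overlapped its controls. Leaving out 1 library ended the call of SGO1 in 4 of 6 cases (siBoth replicates 1 and 2, siControl_Both replicates 2 and 3, adjusted p of 0.0581, 0.0597, 0.0674 and 0.0703). It also ended that of SGO2 without siBoth replicate 2 (-0.54) or siControl_Both replicate 1 or 2 (adjusted p of 0.053 and 0.0804), and that of TTK without siBoth replicate 2 (-0.51) or siControl_Both replicate 2 (-0.57).

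No subunit of the constitutive network was called in siBoth by edgeR or DESeq2, though 5 of 13 were lower and 1 higher at an unadjusted p under 0.05. CENPI had the largest value, with 21.0, 21.1 and 22.6 CPM against 16.7, 12.8 and 14.5 in siBoth (-0.55 ± 0.13, adjusted p = 0.0276), and CENPL and CENPO had -0.55 ± 0.14 and -0.49 ± 0.13 (adjusted p of 0.0355 and 0.0454). These 3 passed on p but were under 1.5-fold. CENPT and CENPW, histone-fold partners, had positive values of 0.30 ± 0.11 and 0.26 ± 0.13 (adjusted p of 0.119 and 0.222). In the checkpoint, MAD2L1, BUB1B and BUB1 had -0.49 ± 0.10, -0.35 ± 0.09 and -0.33 ± 0.09 (adjusted p of 0.0194, 0.0346 and 0.0494), while MAD1L1 had 0.30 ± 0.12 (adjusted p = 0.131) and BUB3 -0.07 ± 0.08. MIS12, called in siFOXM1, measured 39.6, 43.4 and 39.9 CPM against 32.8, 31.5 and 33.8 (-0.33 ± 0.08, adjusted p = 0.0393).

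Without the fold threshold 21 members were lower in siBoth, where 7.77% of all genes were lower, and with the replicate block 29 were lower and 2 higher, where 18.5% of all genes were lower and 16.3% higher. The G2/M list had a median of -0.63 with 25 of 46 called lower, and the S phase list had a median of -0.36 with 6 of 41 called lower. KNSTRN was called lower here too, at -1.02 ± 0.12 (adjusted p = 0.00192). With counts scaled by library size alone, the median of all genes moved from 0.02 to 0.12. It gave 8 members called lower, without TTK (-0.50) and SGO2 (-0.57), and upper-quartile scaling also ended the call of TTK (-0.53). A correction for the GC content and length of transcripts, added once the data had been seen, also gave 8. Under it KNL1, TTK and SGO2 were no longer called, at -0.48, -0.46 and -0.49, and SPC24 was, at -0.61.

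Whether siBoth changed the members more than siMYBL2 did was tested as the difference of the 2 effects, each against its own scrambled control, over 14 libraries. No member was called by edgeR, with 6 lower and 0 higher at an unadjusted p under 0.05, and over all genes 0.159% were called lower and 0% higher. CENPA had the largest difference, -0.81 ± 0.16, with an adjusted p of 0.0974. DESeq2 called it (adjusted p = 0.00164), as did the fit with the replicate block (adjusted p = 0.00265), where 1.29% of all genes were called lower. The other 5 members at an unadjusted p under 0.05 were SGO2 (-0.52 ± 0.18), CENPF (-0.48 ± 0.19), SKA2 (-0.40 ± 0.16), CENPE (-0.37 ± 0.17) and MIS12 (-0.31 ± 0.10), with adjusted p from 0.403 to 0.639. With the correction for GC content and length CENPE and CENPF had -0.13 and -0.27 and CENPA had -0.86, and the members' median moved from -0.06 to -0.0055. HJURP differed by 0.02 ± 0.21 and SPC24 by 0.11 ± 0.18. These sets of libraries differ in the share of reads not aligned, as given above, and the difference went with transcript GC content over the 43 members (Pearson r = 0.54, against 0.40 over 12650 genes), values whose part in the result was not tested.

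**Figure D4:**
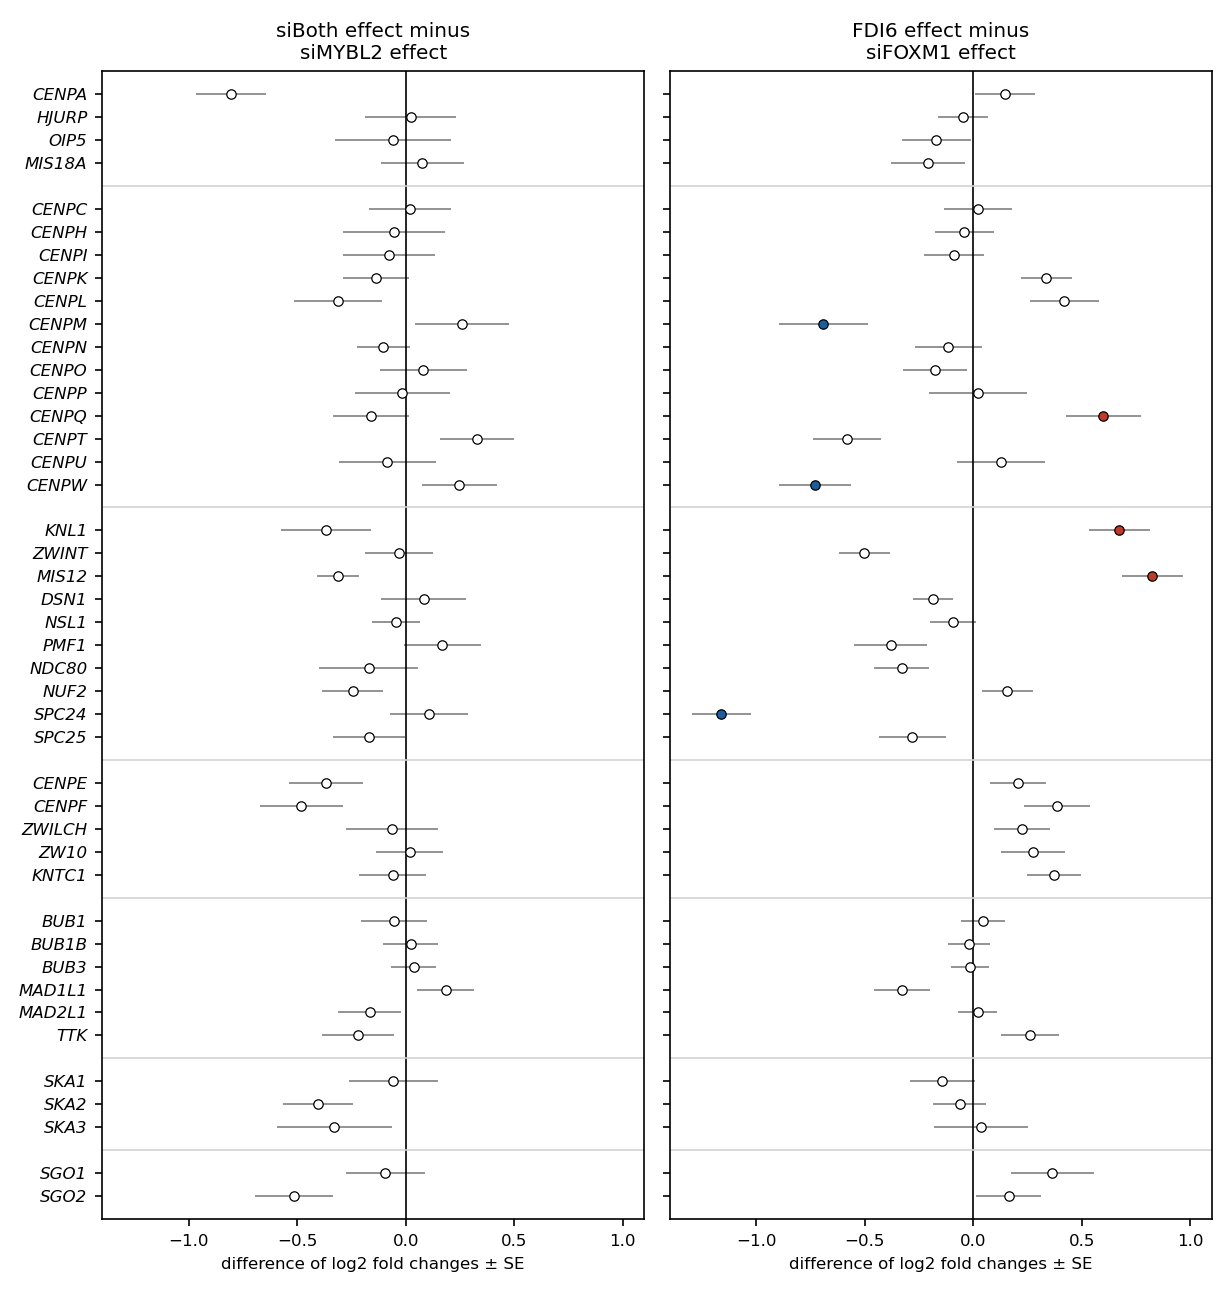
Difference ± SE between 2 log2 fold changes for each of the 43 members: siBoth minus siMYBL2 on the left and FDI6 minus siFOXM1 on the right; blue points were called lower, red points higher. No point is filled on the left, where CENPA lies lowest at -0.81, and 6 are filled on the right.

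FDI-6, the forkhead domain inhibitor, moved members in both directions. SPC24, CENPM and CENPA were called lower and KNL1 was called higher, where 5.77% of all genes were called lower and 8% higher, which puts the 3 of 43 members called lower near the share of all genes and the 1 called higher below it. CENPM belongs to the CENP-H/I/K/M module. The median log2 fold change of the members was -0.05 against -0.01 over all genes, and 25 of 43 were negative. This median was not stable: it was -0.15 without FDI6 replicate 1, 0.03 without FDI6 replicate 3 and -0.20 with the correction for GC content and length, where all genes had 0.0057.

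SPC24 measured 42.3, 39.7 and 40.7 CPM in control_FDI6 and 21.1, 24.7 and 23.1 in FDI6 (-0.83 ± 0.09, adjusted p = 3.56e-05). CENPM measured 38.2, 33.6 and 34.2 CPM in the control and 16.8, 25.6 and 22.3 in FDI6 (-0.71 ± 0.13, adjusted p = 0.00158). CENPA measured 56.2, 53.1 and 46.5 CPM in the control and 30.4, 37.3 and 35.6 in FDI6 (-0.60 ± 0.10, adjusted p = 0.000864). In all 3 genes the FDI6 libraries lay below every control. KNL1 went the other way, from 40.6, 43.2 and 43.5 CPM to 75.7, 66.0 and 57.9 (0.64 ± 0.10, adjusted p = 0.000378), above every control. FDI6 replicate 1 held the outermost value of each of these 4 genes, and without it CENPA, CENPM and KNL1 had log2 fold changes of -0.51, -0.56 and 0.54, below the fold threshold. That library had 3.03% of reads not aligned, against 2.11% and 1.90% in FDI6 replicates 2 and 3, and the part of this was not tested. CENPA was also below the fold threshold without control_FDI6 replicate 1 (-0.54) or 2 (-0.58), and with library size alone (-0.56).

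The corona and RZZ genes, negative in both siMYBL2 and siBoth, had small positive values in FDI6, from 0.04 for CENPF to 0.25 for ZW10, and none passed the test. That direction did not hold under the correction for GC content and length described next, where CENPE and CENPF had -0.28 and -0.36 (adjusted p of 0.00252 and 4.6e-05), ZWILCH and KNTC1 had -0.14 and -0.15, and ZW10 alone stayed positive at 0.14. ZW10 measured 24.2, 26.0 and 25.7 CPM in the control and 34.1, 28.2 and 28.0 in FDI6 (0.25 ± 0.10, adjusted p = 0.0661), and CENPE had 0.21 ± 0.10 (adjusted p = 0.113). In the checkpoint no gene passed, and MAD1L1 had the largest value, with 41.7, 37.4 and 41.5 CPM in the control against 30.6, 36.6 and 37.1 (-0.21 ± 0.10, adjusted p = 0.105). SKA2 measured 88.0, 79.5 and 90.0 CPM against 73.3, 78.1 and 71.9 (-0.21 ± 0.07, adjusted p = 0.0451), and SGO1 measured 20.1, 19.3 and 22.5 against 27.8, 18.4 and 18.7 (0.07 ± 0.15). SKA2 separated from its controls by less than 1.5-fold, and SGO1 overlapped its controls. Without the fold threshold 14 members were lower and 1 higher, where 17.9% of all genes were lower and 21% higher. Of the 11 further genes only CENPX, the histone-fold partner of CENPS, was called, at -0.65 ± 0.09 (adjusted p = 0.000237).

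The FDI6 values went with transcript composition. Over the 43 members the log2 fold change in FDI6 had a Pearson r of -0.62 with GC content and 0.58 with the logarithm of transcript length, against -0.49 and 0.39 over 11939 genes with a mean count of at least 50. The same r with GC content was 0.03 in siMYBL2, 0.22 in siFOXM1 and 0.30 in siBoth. SPC24 (53.3% GC) and CENPM (59.7%) lie at the high end, and KNL1 (37.6%, with a transcript of 9266 bases) at the low end. After the correction for GC content and length 1 member, SPC24, was called lower in FDI6 and none higher. Of all 15240 genes 507 were then called lower and 820 higher. CENPA, CENPM and KNL1 had -0.48, -0.30 and 0.19 with adjusted p of 0.000975, 0.0251 and 0.0315. Without the fold threshold 21 members were lower and 1 higher under the correction, against 14 and 1 before it. The share of all genes without that threshold was not computed for the corrected fit. The sign changed in 14 of the 43 members under the correction, and 5 of these then had an adjusted p below 0.05, namely BUB3 (-0.30), CENPC (-0.30), CENPE, CENPF and SGO2 (-0.33). The epithelial markers, by comparison, summed to 4282 to 5079 CPM in FDI6 against 7571 to 8248 in its control, with KRT8, KRT18 and CDH1 called lower (-0.81, -0.65 and -1.49), EPCAM at -0.47 and KRT19 at 0.35 (adjusted p of 0.0105 and 0.00549, both under 1.5-fold). The fibroblast markers summed to 5.70 to 9.49 CPM against 18.3 to 20.9, with COL1A1 called lower and DCN at 0 in both groups. The part of these values in the members' results was not tested.

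**Figure D5:**
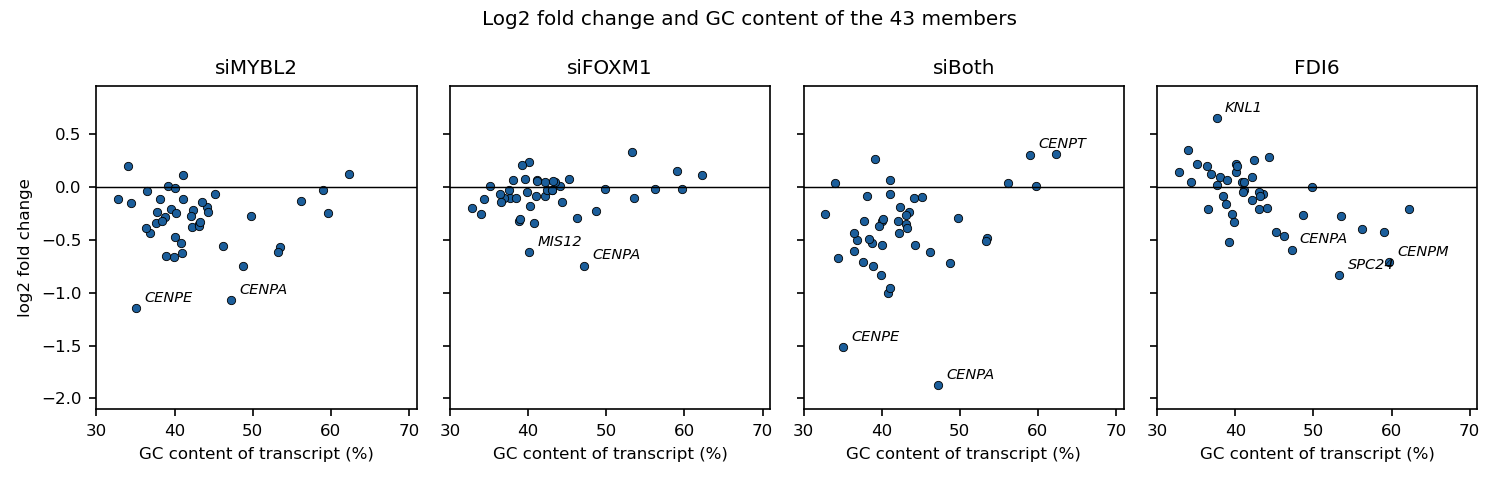
Log2 fold change of the 43 members against the GC content of their canonical transcript, in percent, for each of the 4 treatments; each point is 1 gene. In FDI6 members with a high GC content lie lower (Pearson r = -0.62), and in siMYBL2 no such slope is seen (r = 0.03).

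FDI-6 is an inhibitor of the forkhead domain of FOXM1, and its effects on the members were compared with those of siFOXM1 as a difference, each against its own control. The difference was called negative for SPC24, CENPW and CENPM and positive for MIS12, KNL1 and CENPQ. Over all genes 4.18% were called lower and 7.32% higher. CENPW, MIS12 and CENPQ were not called in FDI6 against its own control. SPC24 had the largest difference, -1.16 ± 0.13 (adjusted p = 5.42e-05), being lower in FDI6 and not in siFOXM1. MIS12 had a difference of 0.83 ± 0.14 (adjusted p = 0.00111), with 29.2, 25.7 and 29.8 CPM in control_FDI6 and 36.3, 30.4 and 31.7 in FDI6. Its log2 fold change was 0.21 ± 0.10 in FDI6 (adjusted p = 0.105 by edgeR) and -0.62 ± 0.09 in siFOXM1. CENPW and CENPM differed by -0.73 ± 0.17 and -0.69 ± 0.20 (adjusted p of 0.007 and 0.0266), and KNL1 and CENPQ by 0.67 ± 0.14 and 0.60 ± 0.17 (adjusted p of 0.00409 and 0.0239). CENPA did not pass, at 0.15 ± 0.14 (adjusted p = 0.488). With the correction for GC content and length CENPM, CENPQ and KNL1 were no longer called, at -0.27, 0.33 and 0.16, while SPC24, CENPW and MIS12 were still called, at -0.98, -0.78 and 0.68. Without the fold threshold 5 members were lower and 4 higher, where 8.64% of all genes were lower and 12.3% higher. The CENPM call was also lost without siFOXM1 replicate 3, FDI6 replicate 1 or control_FDI6 replicate 1 (-0.58, -0.54 and -0.63), that of KNL1 without FDI6 replicate 1 (0.57), and that of CENPQ without any of 6 libraries, siFOXM1 replicate 1 or 3, siControl replicate 3, FDI6 replicate 1 or 2 and control_FDI6 replicate 2 (0.48 to 0.58).

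The calls are set side by side here for each group of subunits, and the shares of all genes called lower were 3.52%, 0.591%, 3.64% and 5.77% in siMYBL2, siFOXM1, siBoth and FDI6. In groups this small, a count of 0 lies near each of those shares. A single call is a larger share of its group than that of all genes, but rests on 1 gene. Of the 4 genes for CENP-A and its deposition, 2 were called lower in siMYBL2, 1 in siFOXM1, 2 in siBoth and 1 in FDI6, with medians of -0.65, -0.26, -0.67 and -0.37. Of 13 constitutive network genes, 0, 0, 0 and 1 were called lower in the same order, with medians of -0.24, -0.02, -0.26 and -0.0020. Of 10 KMN genes, 2, 1, 2 and 1 were called lower, with medians of -0.25, -0.03, -0.35 and -0.23. The 5 corona and RZZ genes had 1, 0, 2 and 0 called lower and medians of -0.44, -0.10, -0.50 and 0.20, and the 6 checkpoint genes had 0, 0, 1 and 0 and medians of -0.30, 0.01, -0.34 and -0.0040. Of the 3 Ska genes and 2 shugoshins, 1 and 2 were called lower in siBoth, and 0 and 1 in siMYBL2. These are descriptions of the lists, and no test between them was made.

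In all, 13 of the 43 members were called in at least 1 of the 4 treatments and 30 in none, where 22.8% of the 14599 genes tested in all 4 were called in at least 1. CENPA alone among the 43 was called lower in all 4. Of the 14599 genes 3 were (0.0205%), CENPA included. The 4 comparisons are not independent, since siMYBL2 and siFOXM1 share the siControl libraries. The CENPA call in FDI6 lay just past the fold threshold and was lost in 3 of 6 fits that left out 1 library. That call was also lost with library size alone and under the correction for GC content and length. HJURP, SPC25, CENPE and SGO1 were called lower with CENPA in both siMYBL2 and siBoth. The level of CENPA, as mean ± SD, was 51.9 ± 4.9 CPM in control_FDI6, 34.4 ± 3.6 in FDI6, 30.02 ± 3.1 in siControl, 22.9 ± 2.1 in siControl_Both, 18.0 ± 0.82 in siFOXM1, 14.2 ± 1.3 in siMYBL2 and 6.22 ± 0.65 in siBoth. FDI6 and siControl, and siControl_Both and siFOXM1, are neighbours in that order from separate sets of libraries, and the ranges of FDI6 and siControl overlap. The 3 control groups had different levels of CENPA, and only changes against a group's own control are compared here.

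By promoter, the 19 members with a CHR had a median log2 fold change of -0.33 in siMYBL2 and the 16 without one -0.15, with 4 and 2 called lower. In siBoth the medians were -0.49 and -0.31, with 6 and 2 called lower. In siFOXM1 they were -0.05 and -0.03 and in FDI6 -0.09 and 0.01, with 1 called lower on each side in both. CENPE, the member with the largest change in siMYBL2, has no match to either CHR word in its window. BUB1B, whose CHR begins at -23, passed on adjusted p in siMYBL2 and siBoth but changed by less than 1.5-fold. Both genes were picked after their values were seen and are examples only. The members with and without a CHR were not tested against each other.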

How the data were processed

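The authors' files hold HTSeq read counts per gene, deposited as whole numbers. Per the labels and the methods of the study, poly(A) libraries were sequenced as 150 bp read pairs, trimmed with Trim Galore, aligned with STAR to hg38 with GENCODE V29 and counted with HTSeq; tool versions and the strand setting are not given in the sources used here. Identifiers were matched to symbols with GENCODE V44 and a table of gene names (58207 of 58721), and rows that name no gene were left out.

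Each comparison was fitted over all genes that passed filterByExpr with edgeR 4.0.16 (R 4.3.3, limma 3.58.1): TMM factors, glmQLFit and glmQLFTest, Benjamini-Hochberg adjustment over all genes tested, and a call at an adjusted p below 0.05 and a fold change above 1.5. The SE is the log2 fold change divided by the square root of F. Differences of effects were contrasts in 1 fit of both sets. CPM used TMM-scaled library sizes, and RPKM divided them by the union of exons. The code was tested on simulated data.

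The 43 members, their groups and the other lists (11 further genes, Seurat 5.3.0 S and G2/M genes without members, cell type markers) were chosen with earlier results of these data known. Among the further genes, 1 is not reported here. Named were every called member, CENPA in every group and, in each comparison with a control, the member of each group with the largest absolute log2 fold change; others are named for contrast, after their values were seen. Alternatives were DESeq2 1.42.0, other scalings and filters, a replicate block, no fold threshold and leaving out each library, and, chosen after the data were seen, library size alone and a correction for GC content and length (splines with 5 degrees of freedom).

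Same-numbered libraries deviated together: their correlations over genes were 0.57 to 0.874 in siMYBL2 and siControl, 0.537 to 0.905 in siFOXM1 and siControl and 0.552 to 0.687 in siBoth and siControl_Both, against -0.286 to 0.159 in FDI6, so the numbers pair the siRNA libraries only. No 2 libraries of a group agreed within sampling noise (chi-square per gene of 3.57 or more). In FDI6 this value was 12.9 and 18.9 for replicate 1 against replicates 2 and 3, and 3.88 for replicate 2 against 3.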

Additional observations from a re-analysis of the deposited data

Results flagged for a closer look

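Within a group of 4 libraries, the library farthest from the rest was examined for every member in siMYBL2, siFOXM1 and siControl. In 5 of 129 such groups its gap to the nearest other library exceeded Dixon's critical value as a share of the whole range, and chance flags about 1 in 20 groups, or 6.45 here. CENPA measured 16.7 CPM in siFOXM1 replicate 2, below the other 3 at 18.2 to 18.5. MIS12 measured 30.9 CPM in siControl replicate 3, below 33.5 in the others. SPC24 measured 9.35 CPM in siMYBL2 replicate 1, where the next library had 12.6. SKA2 measured 96.7 CPM in siFOXM1 replicate 3 and SGO2 43.7 CPM in siFOXM1 replicate 2, above next values of 82.9 and 38.6.

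The effect of FDI6 and that of siFOXM1 differed for 6 members in the fit of the difference by edgeR. The differences of log2 fold changes were -1.16 for SPC24, -0.73 for CENPW, -0.69 for CENPM, 0.60 for CENPQ, 0.67 for KNL1 and 0.83 for MIS12. Each has 3 or 4 libraries a group, and with the correction for GC content and length the differences were -0.98, -0.78, -0.27, 0.33, 0.16 and 0.68 in the same order.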

How the results depend on the processing

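With no fold threshold, members called lower numbered 13 in siMYBL2, 21 in siBoth, 14 in FDI6, 10 in siMYBL2 against siFOXM1 (with 2 higher) and 5 in the difference of FDI6 and siFOXM1. Library size alone left 1 lower in siFOXM1 and 4 in siMYBL2, and upper-quartile scaling left 5 in siMYBL2. The GC content and length correction left 1 lower and 0 higher in FDI6 and 1 higher in the difference of FDI6 and siFOXM1, with or without the replicate block. Calls over all genes in FDI6 fell as well, from 879 lower and 1219 higher to 507 and 820 without the block. DESeq2, the replicate block, and the block with that correction each called 1 member lower, CENPA, in the difference of siBoth and siMYBL2. The replicate block otherwise changed no count of called members past 1.5-fold by more than 1.5 times, adding SKA3 in siMYBL2, OIP5 in siBoth and CENPT in the difference of FDI6 and siFOXM1 (7, 11 and 4 lower). In FDI6, where numbers do not pair libraries, it gave 3 lower and 1 higher.

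Leaving out 1 library gave 5 to 9 members lower in siMYBL2, 1 to 2 in siFOXM1, 7 to 14 in siBoth, 2 to 3 in FDI6 (0 to 1 higher), 3 to 6 in siMYBL2 against siFOXM1 (0 to 1 higher), 0 in the difference of siBoth and siMYBL2, and 2 to 4 lower and 1 to 3 higher in that of FDI6 and siFOXM1. In FDI6, 14 members changed sign under the correction, and 5 of them then had an adjusted p below 0.05 (BUB3, CENPC, CENPE, CENPF and SGO2). Of the members named in the report by rule, MAD1L1 changed sign under the correction (0.10, with or without the block), and SGO1 under the correction (-0.13, with the block -0.14) and without FDI6 replicate 1 (-0.15, with a range of -0.15 to 0.17 over the libraries left out).

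Upper-quartile scaling moved the share of higher calls among all genes from 55.5% to 63.8% in siMYBL2, 43.5% to 59.4% in siBoth, 58.1% to 49.8% in FDI6 and 63.7% to 51.4% in the difference of FDI6 and siFOXM1; library size alone gave 67% in siMYBL2 and 65.6% in siBoth. The block moved calls over all genes in siFOXM1 from 94 lower and 12 higher to 234 and 167. The causes of these changes were not tested. With 3 or 4 libraries a group, the absence of a call does not show that a member did not change.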
